A study of Mus musculus with 6 samples.

Results

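The genes described here are 9 fibroblast growth factor (FGF) genes that are known from the gastrulating mouse embryo, Fgf3, Fgf4, Fgf5, Fgf8, Fgf10, Fgf13, Fgf15, Fgf17 and Fgf18, taken by symbol from a table of 24975 genes. All 9 were in the table. They were measured in 3 Gli3R and 3 control libraries of RNA from embryonic day 7.5 mesoderm. Gli3R embryos were Mesp1-Cre/+;R26-Gli3R-IRES-Venus/+ and control embryos were Mesp1-Cre/+;R26-tdTomato/+, so both groups carried 1 copy of Mesp1-Cre. Gli3R is the repressor version of Gli3, a transcription factor of the Hedgehog pathway, and the comparison asks which transcripts of the early mesoderm change when it is switched on. Mesp1-Cre is active in nascent mesoderm, so Gli3R and the reporters mark the cells that have made Cre and their descendants, not the whole embryo. Per the notes in the count table, Gli3R cells were sorted by Venus and control cells by tdTomato, and each replicate number is a litter that gave 1 library of each group. Embryos were pooled with littermates and 1000 cells were sorted per library. An effect of Gli3R and an effect of the reporter or its gate cannot be told apart.

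Most FGFs are secreted proteins that bind tyrosine kinase receptors on the cell surface together with heparan sulfate. The receptors signal largely through Ras and the kinase ERK. In the mouse gastrula, FGFs made in and beside the primitive streak are needed for epiblast cells to leave the streak as mesoderm, and later for the posterior body axis and the heart field. The label does not cover Fgf13, which belongs to the FGF homologous factors, proteins that stay inside the cell and are not ligands of these receptors.

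Library totals ran from 6592417 to 12635151 counts in Gli3R and from 5481190 to 10435790 in control, so 1 count stood for 0.0791 to 0.182 CPM (counts scaled to a common library size). A gene with no reads could still be present at up to 0.237 to 0.547 CPM, the level of 3 counts. Control replicate 1 stood apart from the other 5 libraries, at 39.8 on the first principal component (35.0% of the variance) against -19.2 to 2.25. Gli3 had 43.6, 38.9 and 50.8 CPM in Gli3R replicates 1, 2 and 3, against 25.7, 29.5 and 34.3 CPM in the controls, and the groups did not overlap. Its log2 fold change was 0.57 ± 0.15 (SE) and did not pass the test (adjusted p = 0.313, edgeR quasi-likelihood test). Reads of the Gli3R transgene and of the endogenous Gli3 gene cannot be told apart in these counts. Mesp1 had 8.99, 11.1 and 14.2 CPM in Gli3R and 25.2, 15.9 and 8.10 CPM in control, which overlap. These values do not check the sort, since no unsorted library was there to compare with. CPM values carry the TMM scaling of edgeR, and a gene is said to rise or fall at an adjusted p under 0.05 in the edgeR quasi-likelihood test over 11913 genes.

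Fgf3, Fgf4 and Fgf15 lie side by side on chromosome 7, and the levels of Fgf3 and Fgf4 are among those that the results turn on, while Fgf10 is the secreted member whose level differed least. The 250 bases upstream of the start of these 3 genes are shown for that reason, from RefSeq (GRCm38.p6), 5′ to 3′ on the strand of the gene. The windows are chr7:144838362-144838611 for Fgf3, chr7:144861136-144861385 for Fgf4 and chr13:118714449-118714698 for Fgf10, all on the plus strand. Capitals mark matches, on either strand, to any of the motifs named after the sequences.
Fgf3: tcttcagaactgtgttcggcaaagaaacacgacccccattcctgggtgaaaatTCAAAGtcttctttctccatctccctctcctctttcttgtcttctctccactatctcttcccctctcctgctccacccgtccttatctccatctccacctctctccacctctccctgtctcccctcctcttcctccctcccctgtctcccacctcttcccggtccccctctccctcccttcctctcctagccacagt
Fgf4: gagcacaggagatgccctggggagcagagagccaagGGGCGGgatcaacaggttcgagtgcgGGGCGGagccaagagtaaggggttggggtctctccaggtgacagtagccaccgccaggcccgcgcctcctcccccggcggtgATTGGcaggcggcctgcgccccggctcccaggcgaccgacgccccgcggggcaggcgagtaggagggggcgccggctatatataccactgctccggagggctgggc
Fgf10: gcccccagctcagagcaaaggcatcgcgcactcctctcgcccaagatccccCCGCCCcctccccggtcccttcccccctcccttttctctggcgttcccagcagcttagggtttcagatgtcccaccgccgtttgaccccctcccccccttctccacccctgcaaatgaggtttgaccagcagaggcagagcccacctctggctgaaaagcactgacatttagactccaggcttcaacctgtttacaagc
The Fgf3 window is rich in C and T, which make up 79.2% of its bases, and held 1 match to the TCF/LEF motif CTTTGA, on the minus strand at -197 from the start. The Fgf4 window, of 71.2% G and C, held the GC box GGGCGG on the plus strand at -214 and -188 and CCAAT, as ATTGG, at -106. The Fgf10 window, of 61.2% G and C, held 1 GC box on the minus strand at -199.

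Upstream windows were at hand for 6 of the 9 genes (Fgf3, Fgf4, Fgf5, Fgf10, Fgf13 with 4 starts, and Fgf18). None of these 9 windows held the exact letters of the Gli motif GACCACCCA, the T-box motif AGGTGTGA or the TATA motif TATAAA. Variants of these motifs were not searched, and the Fgf4 window holds the letters tatatata near its end. Of 32851 windows of the same length, read on both strands, the Gli motif was in 0.225%, the T-box motif in 1.12% and TATAAA in 12.4%. CTTTGA was in 13.8%, GGGCGG in 32.7% and CCAAT in 33.8%. A match describes the letters and not a bound site.

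Of the 9 genes, 2 fell in Gli3R mesoderm, Fgf3 and Fgf15, and none rose. Across all 11913 genes tested, 0.109% fell and 0.0252% rose, 0.134% in either direction. Another 4 genes were lower in every Gli3R library than in any control library without a call. Of these, Fgf4 and Fgf8 were tested and missed the threshold, and Fgf5 and Fgf17 were too sparse to be tested. Among all tested genes 6.33% were lower without overlap. Fgf10 and Fgf13 overlapped between the groups. Fgf18 was close to the limit of detection. Of the 9 genes, 6 had enough reads to be tested (Fgf3, Fgf4, Fgf8, Fgf10, Fgf13 and Fgf15), and Fgf4 got there through its control libraries alone. The median log2 fold change of those 6 was -1.34, beside -0.0079 over all tested genes, and it describes a set in which that filter had a part. In these bulk samples, fewer cells that make a transcript and less of it per cell cannot be told apart.

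**Figure D1:**
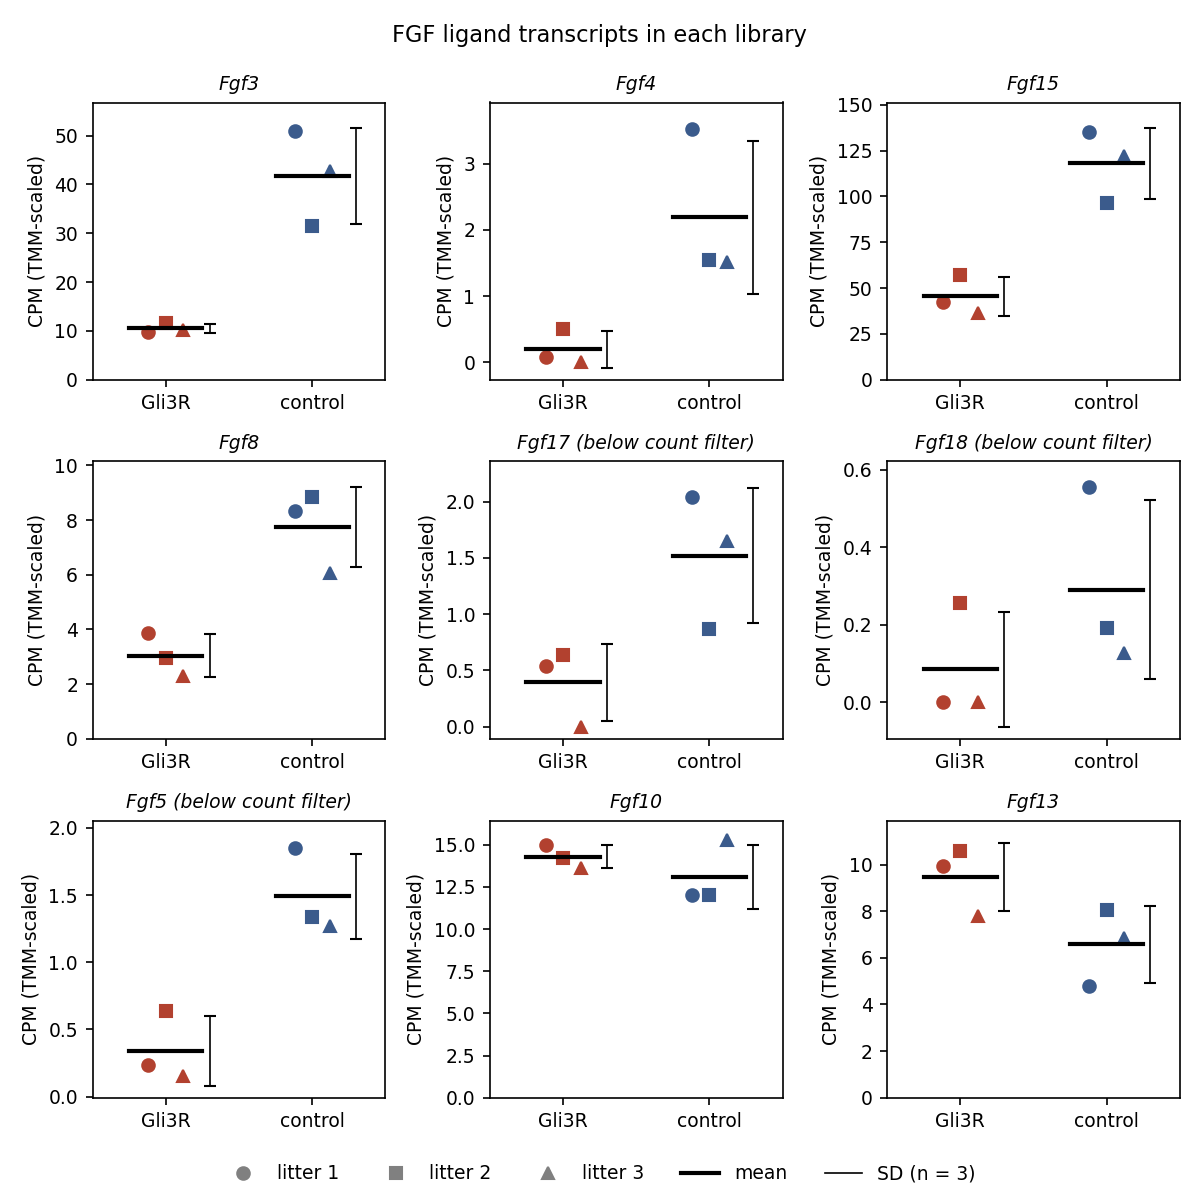
Level of each of the 9 genes in CPM (y axis, linear, a scale of its own per panel) in the 3 Gli3R and 3 control libraries, with points shaped by litter and bars giving the mean and SD of each group. Fgf3 sits at 9.76 to 11.6 CPM in Gli3R and 31.5 to 50.9 CPM in control, while the points of Fgf10 and Fgf13 overlap between the groups.

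Fgf3, a secreted FGF of the streak and tailbud, had 9.76, 11.6 and 10.1 CPM in Gli3R replicates 1, 2 and 3, against 50.9, 31.5 and 42.8 CPM in control replicates 1, 2 and 3. The highest Gli3R library lay well below the lowest control library, and the controls were the more scattered group, at 10.5 ± 0.998 CPM in Gli3R and 41.7 ± 9.76 CPM in control (SD, n = 3 libraries each). These levels rested on 126, 91 and 66 reads in Gli3R and on 275, 328 and 338 reads in control. The fall was 3.95-fold, a log2 fold change of -1.98 ± 0.19 (SE, 95% interval -2.41 to -1.56; adjusted p = 0.0045, edgeR). By litter it was 5.21-fold in litter 1, 2.71-fold in litter 2 and 4.23-fold in litter 3. Without control replicate 1, the library that stood apart, the log2 fold change was -1.82 ± 0.17 (SE, adjusted p = 0.00449, edgeR). The call did not hold without Gli3R replicate 3, at -1.96 ± 0.23 (SE, adjusted p = 0.0638, edgeR), where the estimate barely moved.

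Fgf15, the mouse counterpart of human FGF19 and the most abundant of the 9 genes, had 42.6, 57.2 and 36.4 CPM in Gli3R replicates 1, 2 and 3, against 135, 96.4 and 122 CPM in the controls. All Gli3R libraries were again below all controls, with Gli3R replicate 2 and control replicate 2, which share a litter, nearest to each other. The means were 45.4 ± 10.6 CPM in Gli3R and 118 ± 19.5 CPM in control (SD, n = 3 each). The fall was 2.59-fold, a log2 fold change of -1.37 ± 0.17 (SE, 95% interval -1.76 to -0.98; adjusted p = 0.0234, edgeR). Within litters it was 3.16-fold, 1.69-fold and 3.36-fold in litters 1, 2 and 3. Without control replicate 1 the log2 fold change was -1.26 ± 0.17 (SE, adjusted p = 0.0236, edgeR). The call was lost without Gli3R replicate 1 (adjusted p = 0.0890), Gli3R replicate 3 (0.0978) or control replicate 3 (0.0627), with log2 fold changes of -1.32, -1.24 and -1.34 (edgeR). In the reference annotation Fgf15 overlaps the long noncoding RNA Gm26793, which is not in the count table, so reads of the 2 genes cannot be told apart.

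Without Gli3R replicate 3 no gene of the whole table was called, by edgeR. An unadjusted p under 0.05 was reached by 659 of the 12188 genes tested there, or 5.41%. With litter as a block, Fgf3 (adjusted p = 0.0132) and Fgf15 (0.0425) were the genes called among the 9, as before, and the count over all genes was 27 instead of 16, or 0.227% of those tested (edgeR).

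Fgf8, the ligand whose loss stops cells from moving away from the streak in mouse embryos, had 3.87, 2.94 and 2.30 CPM in Gli3R replicates 1, 2 and 3, against 8.33, 8.83 and 6.08 CPM in the controls. The groups did not overlap, and the 3 litters were alike, with 2.15-fold, 3.00-fold and 2.65-fold lower levels in Gli3R. The counts were small, 50, 23 and 15 reads in Gli3R and 45, 92 and 48 reads in control. The log2 fold change of -1.31 ± 0.27 (SE, 95% interval -1.91 to -0.71) did not pass the test (adjusted p = 0.171, or 0.0879 with litter as a block, edgeR). Fgf8 passed with no filter on low counts (adjusted p = 0.0234, edgeR) and with DESeq2 (0.0271), at nearly the same size, and under those settings 0.577% and 0.789% of all tested genes were called.

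Fgf4, a streak ligand that acts together with Fgf8 in the early embryo, had 1, 4 and 0 reads in Gli3R replicates 1, 2 and 3, against 19, 16 and 12 reads in the controls. In CPM these were 0.0775, 0.512 and 0 in Gli3R and 3.52, 1.54 and 1.52 in control. Every control library held more reads than the 3 Gli3R libraries together, although Gli3R replicate 1 was the largest library of all. The 5 reads against 47 are a 10.8-fold lower level in Gli3R, with a 95% interval of 4.32 to 34.8 for counting error only. The log2 fold change of -3.39 ± 0.76 (SE, 95% interval -5.09 to -1.68) did not pass the test (adjusted p = 0.209, edgeR). It passed with no filter on low counts (adjusted p = 0.0241, edgeR) and with DESeq2 (0.0260). Without litter 2 the pooled reads were 45.3-fold lower, but on 1 read against 31 (95% counting interval 7.55 to 1850). Without litter 1 they were 5.48-fold lower (1.92 to 21.5). The 45.3-fold value lies above the interval of all 3 litters. Both of these intervals overlap that one, but they are drawn from the same reads, so the overlap does not show that the litters agree.

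Fgf5, a marker of the epiblast before and during gastrulation, had 3, 5 and 1 reads in Gli3R replicates 1, 2 and 3, against 10, 14 and 10 reads in the controls. It was too sparse to be tested, but in CPM all Gli3R libraries (0.232, 0.639 and 0.153) were below all controls (1.85, 1.34 and 1.27). The 9 reads against 34 are a 4.34-fold lower level (95% counting interval 2.04 to 10.3), and 7.31-fold without litter 2. With no filter on low counts its adjusted p was 0.239 (edgeR), which misses the threshold.

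Fgf17, a close relative of Fgf8, had 7, 5 and 0 reads in Gli3R replicates 1, 2 and 3, against 11, 9 and 13 reads in the controls. In CPM the groups did not overlap, although litter 2, with 0.639 CPM in Gli3R and 0.864 CPM in control, came close. The pooled level was 3.16-fold lower in Gli3R (12 reads against 33, 95% counting interval 1.59 to 6.72). Without litter 2 it was 5.01-fold lower and without litter 3 it was 2.18-fold lower (1.02 to 4.90). Its adjusted p with no filter on low counts was 0.522 (edgeR). Fgf17 overlaps the long noncoding RNA Gm38605 in the reference annotation. Fgf18, also of the Fgf8 subfamily, had 0, 2 and 0 reads in Gli3R and 3, 2 and 1 reads in control, and the groups overlapped. Its pooled ratio was 3.45-fold lower with a counting interval of 0.616 to 34.9, so no difference was detectable at this depth.

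Fgf10, a ligand of the early heart field that signals to epithelia in many organs, had 15.0, 14.2 and 13.6 CPM in Gli3R replicates 1, 2 and 3, against 12.0, 12.0 and 15.3 CPM in the controls. The groups overlapped, and Gli3R was the higher in litters 1 and 2 and the lower in litter 3. The log2 fold change was 0.13 ± 0.16 (SE, adjusted p = 0.996, edgeR), with a 95% interval of -0.24 to 0.49 that leaves out changes as large as those of Fgf3 or Fgf15. Fgf10 rested on 394 reads in Gli3R and 311 in control, more than the 88 and 185 reads behind Fgf8.

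Fgf13, the intracellular member, which is known to bind sodium channels and microtubules in neurons, had 9.92, 10.6 and 7.81 CPM in Gli3R replicates 1, 2 and 3, against 4.81, 8.06 and 6.83 CPM in the controls. The lowest Gli3R library lay below the highest control, yet Gli3R was the higher within each of the 3 litters, which was so for 15.0% of all tested genes. The log2 fold change was 0.50 ± 0.23 (SE, 95% interval -0.02 to 1.02; adjusted p = 0.738, edgeR). It was 0.35 ± 0.22 (SE, adjusted p = 0.733, edgeR) without control replicate 1, the library with the lowest level. In the reference annotation Fgf13 overlaps Mir504, which had 0 reads, and 4 noncoding genes or pseudogenes that are not in the count table, whose reads cannot be told apart from its own.

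**Figure D2:**
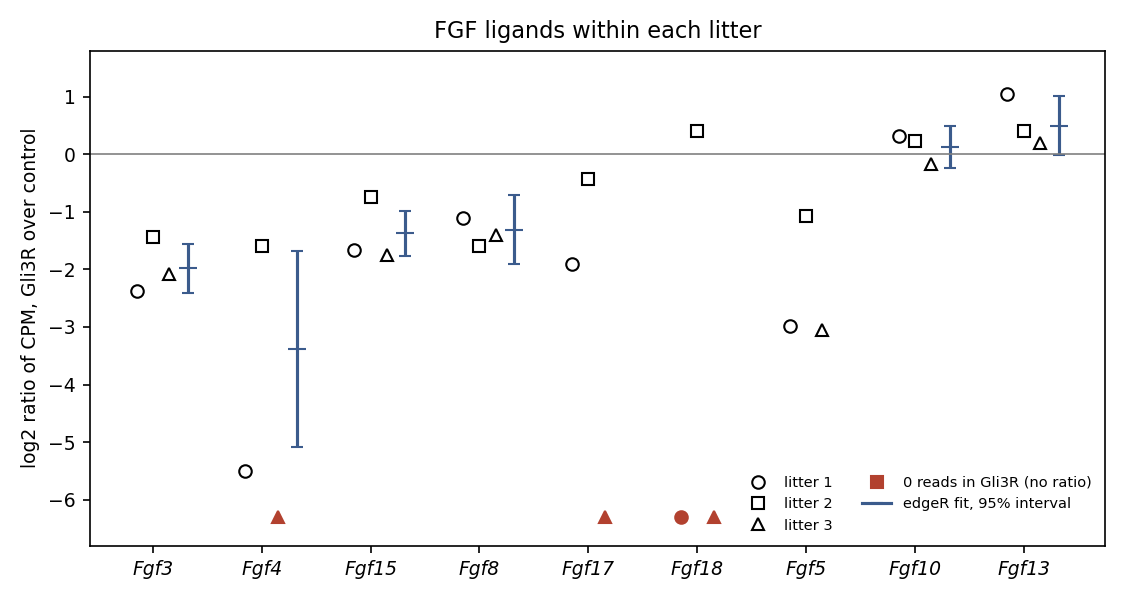
Log2 ratio of the Gli3R over the control library of the same litter (axis in log2 units, 0 for no difference) for each of the 9 genes, with points shaped by litter blue bars for the edgeR estimate and its 95% interval, and cases of 0 Gli3R reads drawn in red at the bottom as having no ratio. Fgf3, Fgf15, Fgf8 and Fgf5 lie below 0 in all 3 litters, Fgf13 above 0 in all 3, and Fgf10 on both sides of 0.

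The litters differed in how far the genes were apart. Litter 2 had the smallest difference for Fgf3, Fgf4, Fgf5, Fgf15 and Fgf17, with log2 ratios of -1.44, -1.59, -1.07, -0.75 and -0.43. For Fgf8 the same litter had the largest, -1.59, against -1.10 in litter 1 and -1.40 in litter 3. Whether the litters differ was not tested, since each holds 1 library per group. Of the 9 genes, 6 were lower in Gli3R without overlap between the groups, which by itself makes them lower in all 3 litters. Fgf5 and Fgf17 among them were not tested, so this held for 4 of the 6 tested genes. Among all tested genes 6.33% were lower without overlap and 15.3% were lower in all 3 litters.

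Levels of different genes were compared per length, as RPKM, which divides the CPM value by the length of the merged exons in kilobases. In Gli3R the order was Fgf15 (14.9 RPKM), Fgf3 (4.52), Fgf10 (3.11), Fgf13 (2.35) and Fgf8 (2.25), and the other 4 genes were between 0.0615 and 0.233 RPKM. In control it was Fgf15 (38.5 RPKM), Fgf3 (17.9), Fgf8 (5.74), Fgf10 (2.85) and Fgf13 (1.64), with the other 4 between 0.245 and 0.897 RPKM. Fgf8 thus had rank 3 in control and rank 5 in Gli3R, where its libraries (1.70 to 2.87 RPKM) overlapped those of Fgf13 (1.94 to 2.64 RPKM). In control, the libraries of Fgf15, Fgf3, Fgf8 and Fgf10 each stood clear of the next gene in the order, as Fgf5 did of Fgf18, while Fgf13, Fgf17, Fgf4 and Fgf5 overlapped from each to the next. In Gli3R, Fgf15, Fgf3 and Fgf10 each stood clear of the next gene, as Fgf8 did of the 4 sparse genes, which overlapped among themselves. With the longest coding transcript as the length, Fgf13 came above Fgf10 in Gli3R and the other places stayed as they were.

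Summed over the 9 genes, the level per length was 27.2, 32.6 and 22.9 RPKM in Gli3R replicates 1, 2 and 3, against 79.4, 57.9 and 70.0 RPKM in the controls. Fgf15 made up 53.9% of the mean sum in Gli3R and 55.8% in control, so its share was nearly equal. The share of Fgf3 was 16.4% in Gli3R and 25.9% in control, and that of Fgf10 was 11.3% in Gli3R and 4.13% in control.

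The table held another 13 FGF genes, none with enough reads to be tested. Of these, 8 (Fgf1, Fgf2, Fgf6, Fgf11, Fgf20, Fgf21, Fgf22 and Fgf23) had no read in any of the 6 libraries. Fgf9 had 4, 1 and 1 reads in Gli3R and 0, 0 and 1 in control, and no library had over 6 reads of Fgf7, Fgf12, Fgf14 or Fgf16.

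Fgf3, Fgf4 and Fgf15 have 10 other protein-coding genes within 5 places of them on the chromosome, of which 7 were tested and 1, Ccnd1, fell. Ccnd1, which codes for the cell cycle protein cyclin D1, had 51.6, 53.8 and 40.7 CPM in Gli3R replicates 1, 2 and 3, against 92.8, 90.6 and 87.7 CPM in the controls. The groups were far apart, and the log2 fold change was -0.89 ± 0.12 (SE, adjusted p = 0.0264, edgeR, or 0.0216 with litter as a block). This call did not hold when any library other than control replicate 1 was left out, with log2 fold changes of -0.96 to -0.78. Between Fgf15 and Ccnd1 lies Oraov1 (also LTO1), whose log2 fold change was 0.26. Its span touches that of Ccnd1 in the reference, so some reads of both may not be told apart. The others were Ppfia1 at 0.20, Fadd at 0.13, Cttn at 0.06, Tpcn2 at 0.04 and Ano1, next to Fgf3, at -0.21 (log2 fold changes, none called). All 6 of these overlapped between the groups. Around all 9 genes, at 7 places in the genome, 70 neighbours were listed and 35 tested. Of these 35, 1 (Ccnd1) fell and none rose, with a median log2 fold change of -0.10. Over all 11913 genes tested, 0.109% fell and 0.0252% rose.

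**Figure D3:**
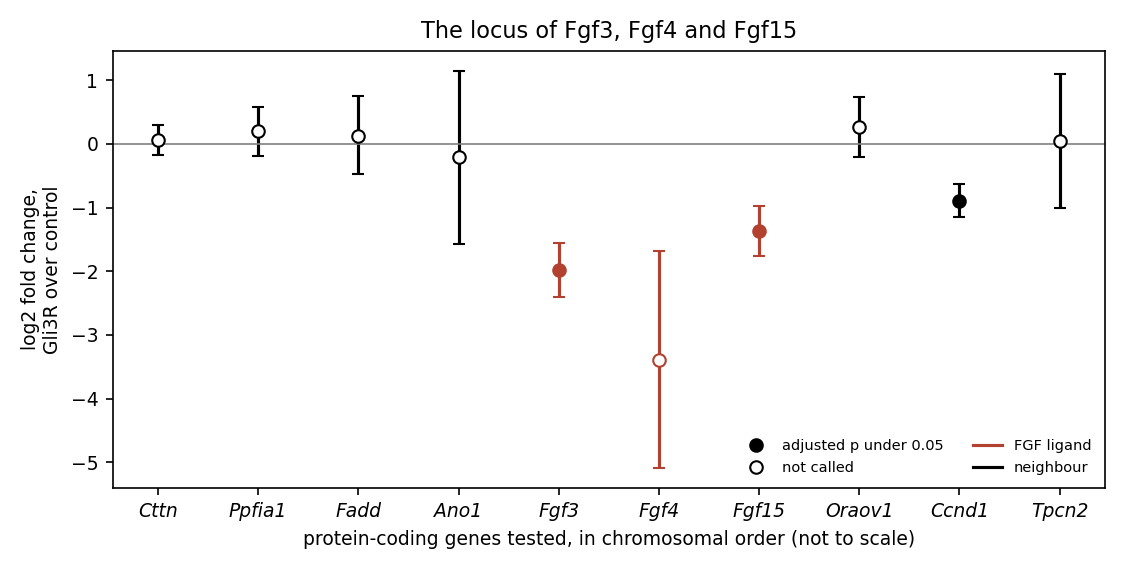
Log2 fold change of Gli3R over control with its 95% interval (y axis) for Fgf3, Fgf4, Fgf15 and their tested protein-coding neighbours, placed along the x axis in chromosomal order and not to distance. Fgf3 (-1.98), Fgf4 (-3.39) and Fgf15 (-1.37) stand next to each other, Ccnd1 is at -0.89, and the 6 other neighbours lie between -0.21 and 0.26.

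Genes of FGF signalling downstream of the ligands were counted in 4 lists. None of their 50 tested genes was called, by edgeR with or without litter as a block. Over all tested genes only 0.134% were called, or 0.227% with the block. At such rates, no call among 50 genes does not show that they are unchanged. An unadjusted p under 0.05 was reached by 8 (5 higher and 3 lower in Gli3R), beside 6.86% of all tested genes. DESeq2 called 2, Phlda1 and Gpc3, beside 0.789% of all tested genes. The 6 tested receptors and co-receptors had a median log2 fold change of 0.28. Among them Fgfr3, an FGF receptor, averaged 10.3 ± 2.75 CPM in Gli3R and 5.69 ± 0.691 CPM in control (SD, n = 3 each), with no overlap between the libraries (log2 fold change 0.85 ± 0.25, SE; adjusted p = 0.405, edgeR). Flrt2 was at 0.42 and Fgfr2 at 0.30 on the log2 scale.

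The 14 tested genes that make or edit heparan sulfate, the co-receptor sugar of most FGFs, had a median log2 fold change of -0.13. Gpc3, a core protein that carries this sugar, had 323, 345 and 279 CPM in Gli3R and 395, 540 and 495 CPM in control, without overlap (log2 fold change -0.60 ± 0.12, SE; adjusted p = 0.175, edgeR). Sdc1, another core protein, was at -0.33 and Ugdh, which makes a sugar precursor, at 0.37. The 15 genes of the signal relay from receptor to ERK had a median of 0.08, and Nras was at 0.16.

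The 15 tested genes that ERK signalling is known to induce or that feed back on it had a median log2 fold change of 0.03, with values on both sides of 0. Phlda1 had 20.8, 14.1 and 23.7 CPM in Gli3R and 9.81, 10.3 and 10.3 CPM in control (0.95 ± 0.20 on the log2 scale, SE; adjusted p = 0.189, edgeR). Spry1, an inhibitor of receptor tyrosine kinase signalling, had 6.59, 7.16 and 7.20 CPM in Gli3R and 8.70, 10.7 and 11.5 CPM in control (-0.57 ± 0.19, SE; adjusted p = 0.498, edgeR). Ier3 was at 1.08 ± 0.36 (SE, adjusted p = 0.498, edgeR). Of the 15 genes, 2 (Phlda1 and Ier3) were higher in Gli3R without overlap between the groups, and 1 (Spry1) was lower. Among all tested genes 5.62% were higher and 6.33% lower without overlap. Dusp6, Etv4, Etv5 and Spry4, common readouts of FGF signalling that, like Spry2, were added after their values were seen, were at 0.10, -0.50, -0.42 and -0.81. Spry2, another such readout, was at 0.91 (adjusted p = 0.700, edgeR). Within litters, Spry2 was higher in Gli3R in all 3, Etv4 and Etv5 were lower in all 3, and Dusp6 and Spry4 went both ways. Of all tested genes, 15.0% were higher and 15.3% lower in all 3 litters. All 5 overlapped between the groups and none was called. Dusp6, the ERK phosphatase, had 47.4, 55.6 and 40.7 CPM in Gli3R and 38.3, 51.4 and 43.7 CPM in control.

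**Figure D4:**
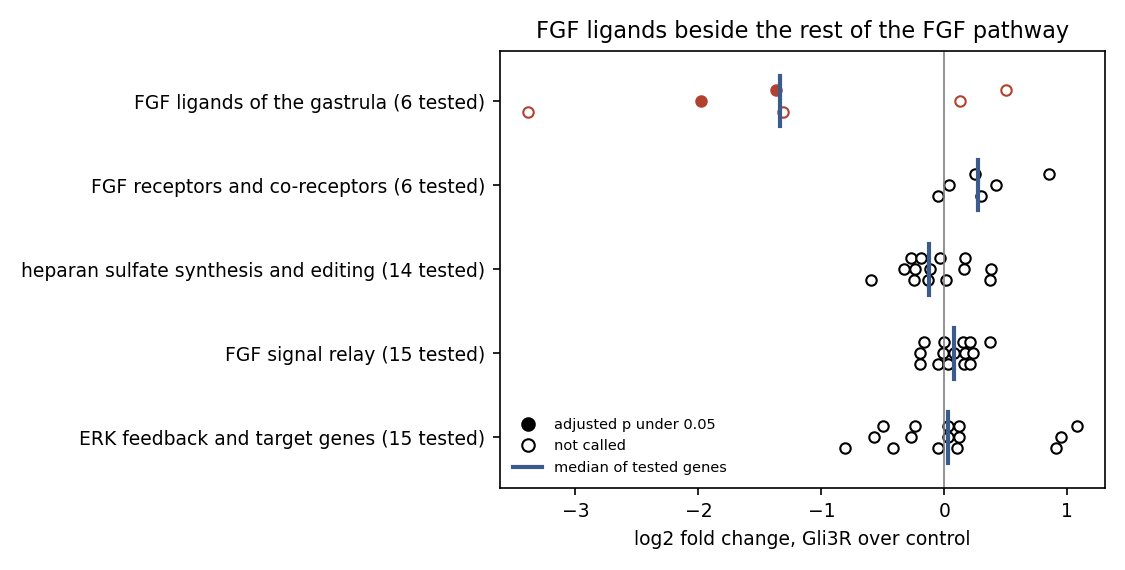
Log2 fold change of Gli3R over control (one axis, 0 marked) for each tested gene of the FGF ligands and of the 4 lists of FGF signalling, with filled points for an adjusted p under 0.05. Fgf3 and Fgf15 are the filled points, and the medians of the 4 lists lie between -0.13 and 0.28.

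The tested genes closest in pattern to each of the 6 tested FGF genes over the 6 libraries were named by the root mean square (RMS) difference of log2 CPM, each gene centred on its mean, as a description. For Fgf3 they were Fgf15 (0.31), the Notch ligand Dll3 (0.32) and the activin inhibitor Fst (0.37), where the median of 9331 genes was 1.00. For Fgf15 they were Abr (0.19), the parathyroid hormone receptor Pth1r (0.24) and Car3 (0.27). For Fgf4, the least alike, they were Fgf3 (0.59), Fabp7 (0.60) and Fgf15 (0.73). Fgf8 was nearest to Sparcl1 (0.18) and to Gdf1 and Cers1 (0.19 each). Gdf1 and Cers1 hold identical counts in all 6 libraries, since they share a transcript, and count as 1 gene. Fgf10 was nearest to Gna12 (0.02), Ranbp6 (0.04) and Arfgap2 (0.04), and Fgf13 to Ptar1 (0.11), the vascular growth factor receptor Kdr (0.11) and Sclt1 (0.12).

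Markers of the cell types that the sort could hold were counted in the same libraries. The summed level of 12 presomitic and paraxial mesoderm markers was 53.0 to 88.8 CPM in Gli3R and 110 to 204 CPM in control. Of its 9 tested genes Dll3 fell (4.65, 4.22 and 4.13 CPM in Gli3R, against 16.3, 14.7 and 11.0 CPM in control; adjusted p = 0.0234, edgeR), and all 9 had a log2 fold change below 0, as did 51.8% of all tested genes. The low-count filter had a part in that count, since Ripply2 (0.775, 1.41 and 0 CPM in Gli3R) passed it through its control libraries. The 11 primitive streak and nascent mesoderm markers summed to 95.2 to 105 CPM in Gli3R and 116 to 180 CPM in control, with no gene called. Of its 10 tested genes, 8 had a log2 fold change below 0, the lowest being T (-1.93). Wnt3 (0.40) and Lhx1 (0.07) were above 0. T, a defining gene of the streak, had 8.06, 5.12 and 3.52 CPM in Gli3R and 43.5, 16.3 and 7.97 CPM in control, which overlap, and it was lower in Gli3R in all 3 litters. With litter as a block T (adjusted p = 0.0373), Cdx1 (0.0327) and Cdh1 (0.0327) also fell, and Bmp4, of the extraembryonic mesoderm list, rose (log2 fold change 0.69, adjusted p = 0.0425, edgeR). Cdh1, with 7, 4 and 2 reads in Gli3R, passed the low-count filter through its control libraries alone.

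The 9 markers of the epiblast, where Fgf5 is known to be made, summed to 140 to 155 CPM in Gli3R and 148 to 268 CPM in control. Of the 7 tested genes of that list, 6 had a log2 fold change below 0, beside 51.8% of all tested genes, and Otx2 was at 0.12. Cdh1, the epithelial cadherin, had the lowest (-3.11), with 0.542, 0.512 and 0.306 CPM in Gli3R and 7.22, 3.55 and 2.28 CPM in control. Nanog, at -0.49, was higher in Gli3R in 2 of the 3 litters. Control replicate 1 had the highest sum of all 6 libraries for the presomitic, streak and epiblast markers. The 7 extraembryonic mesoderm markers summed to 434 to 590 CPM in Gli3R and 310 to 481 CPM in control, with Ahnak called as higher (76.6, 91.2 and 88.3 CPM in Gli3R, against 37.6, 42.7 and 47.2 CPM in control; adjusted p = 0.0172, edgeR). Of the 6 tested genes of that list, 2 had a log2 fold change below 0, Tdo2 at -0.85 and Tbx4 at -0.38, neither called. The 6 endothelial markers summed to 140 to 160 CPM in Gli3R and 90.5 to 127 CPM in control. Node and notochord markers were near the limit of detection, at 1.08 to 1.66 CPM in Gli3R and 1.77 to 3.70 CPM in control, with Foxj1 at 0. Extraembryonic ectoderm markers were at 1.70 to 3.58 CPM in Gli3R and 4.18 to 7.22 CPM in control, with Elf5 at 0. Most of that sum was Ascl2 (1.32, 2.81 and 3.06 CPM in Gli3R, 6.67, 4.80 and 3.67 CPM in control), which was not called (adjusted p = 0.512, edgeR). Tfap2c, Esrrb and Sox21 were at 0 to 0.512 CPM and were not tested. Blood markers (181 to 633 CPM in Gli3R and 184 to 413 CPM in control) and endoderm markers (67.0 to 104 CPM in Gli3R and 72.6 to 96.0 CPM in control) overlapped. The part of these marker differences in the levels of Fgf3, Fgf4, Fgf5, Fgf8, Fgf15 and Fgf17 was not tested.

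**Figure D5:**
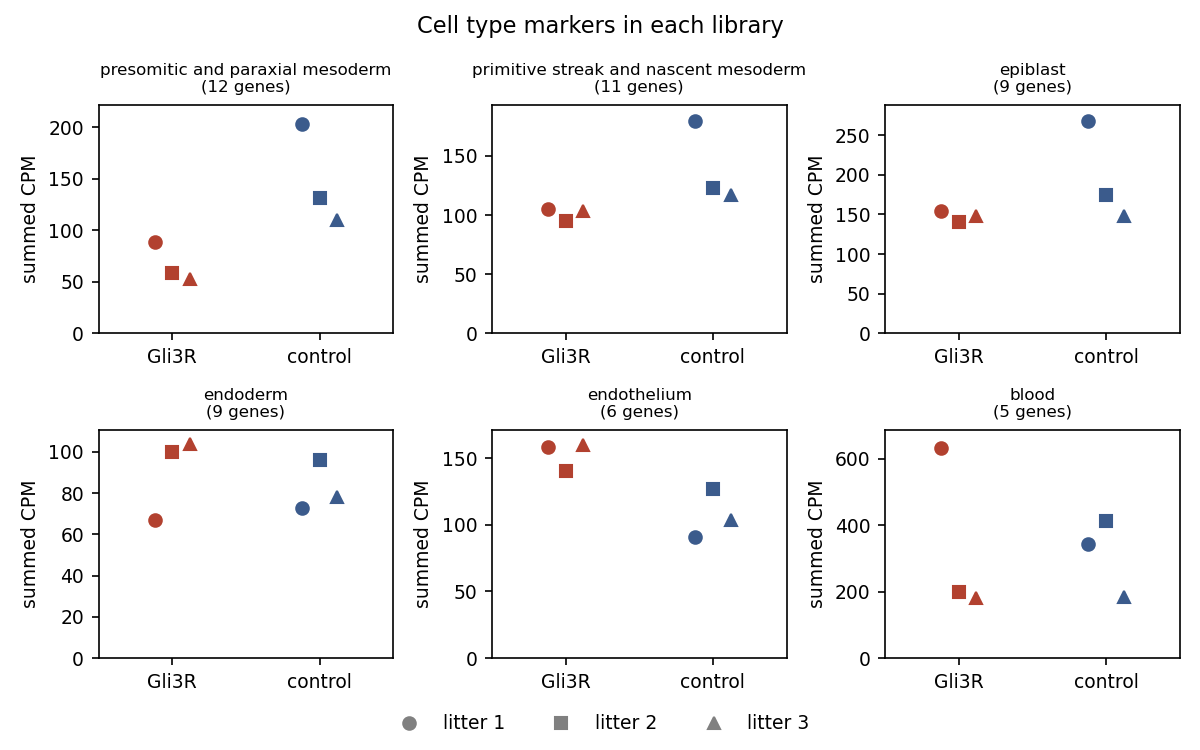
Summed CPM of 6 lists of cell type markers (y axis, linear from 0, a scale of its own per panel) in the 3 Gli3R and 3 control libraries, with 1 point per library shaped by litter. The presomitic and paraxial mesoderm sum is 53.0 to 88.8 CPM in Gli3R and 110 to 204 CPM in control, and the streak sum 95.2 to 105 CPM in Gli3R and 116 to 180 CPM in control.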

How the data were processed

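RNA of 1000 sorted cells per library was made into cDNA with the SMARTer Ultra Low kit and into libraries with Nextera XT, per the labels' protocols. The authors deposited raw counts, 1 value per library for each Entrez gene ID. Named without roles, per the submitters' processing notes, are the build mm9 and the tools TopHat2 2.0.14, featureCounts, Subread 1.4.6, FastQC and edgeR. For the counting, neither annotation nor strand setting is given in the sources used here. Overlapping and antisense genes could share reads.

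The 9 FGF genes, the gene lists and the tests were chosen with earlier results of these data known. Symbols turned into dates (27) were restored by ID. The main test was edgeR 4.0.16 in R 4.3.3 (limma 3.58.1 was loaded with it): filterByExpr with a minimum count of 10 left 11913 genes, followed by TMM scaling, the quasi-likelihood test without other terms (two-sided) and Benjamini-Hochberg adjustment over all tested genes at 0.05. Standard errors and 95% intervals come from that fit. Pooled reads of sparse genes were compared with exact intervals that cover counting error only. Libraries were compared in pairs for duplicates, and chi-square per gene was 4.12 to 15.2, above sampling noise.

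The labels and the notes in the count table give the litter behind each replicate number, which pairs the libraries. As a check, each library's deviations from its group mean were correlated across genes, at 0.168, 0.187 and 0.0755 for libraries of 1 litter and -0.269 to 0.162 for others. Alternatives were the litter block, scaling by DESeq2's size factors or by library size only, no filter, at least 5 CPM in 3 libraries, DESeq2 1.42.0, and leaving out each library or litter. Named were the 9 genes, Gli3, called list members with up to 3 more per list by smallest p, the neighbours of Fgf3, Fgf4 and Fgf15, and the 3 closest genes by pattern (mean of at least 5 CPM, prior count 2). Some genes that this rule names are not reported here. Marker genes, which fall outside this rule, were named after their values were seen where they define a type or were called. Gene lengths came from GENCODE annotation, neighbours and upstream sequences from RefSeq, both of a later build than mm9. The fitting steps were tested on simulated data.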

Additional observations from a re-analysis of the deposited data

How the results depend on the processing

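No log2 fold change or read ratio of a named FGF gene, nor that of Ccnd1, changed direction under an alternative that gave a value. Over all genes, 16 were called; the count was 27 with litter as a replicate block, 108 with no filter on low counts, 284 with no filter and the block, 94 with DESeq2, 0 to 18 leaving out 1 library, 0 to 27 leaving out 1 litter (27 without litter 1, 2 without litter 2, 0 without litter 3), and 0 to 221 when the block was also used. The balance of these calls moved too, with 3 higher and 13 lower in Gli3R in the first fit, 9 and 18 with the block, 49 and 59 with no filter, 43 and 51 with DESeq2, 160 and 124 with no filter and the block, and 123 and 98 without litter 1 and with the block. Among the FGF genes 2 were called, and 4 (Fgf3, Fgf4, Fgf8 and Fgf15) with no filter, with no filter and the block, and with DESeq2, 0 to 2 leaving out a library or a litter, and 0 to 3 leaving out a litter with the block. The block on all 3 litters changed no call of an FGF gene, whereas without litter 1 it added Fgf8 (adjusted p = 0.0147, against 0.123 without the block, edgeR). Without litter 3 no gene was called by edgeR, with 747 of 12326 (6.06%) at an unadjusted p under 0.05. Fgf3 was then at -1.94 (adjusted p = 0.115) and Fgf15 at -1.21 (adjusted p = 0.175). Adjusted p for Fgf3 ran from 3.6e-17 to 0.14 and for Fgf15 from 6.44e-12 to 0.216 over 19 alternatives. Neighbour genes called numbered 1, and 2 with no filter and the block, and 0 to 1 leaving out a library or a litter. Genes of the 4 signalling lists called numbered 0, and 2 with no filter, 4 with no filter and the block, 2 with DESeq2, 0 to 1 leaving out a library or litter, and 0 to 3 leaving out a litter with the block. For Fgf4 the pooled reads were 45.3-fold lower without litter 2, against 10.8-fold, and ran from 5.48 to 45.3-fold leaving out a litter. The value without litter 2 rests on 1 read in Gli3R (95% counting interval 7.55 to 1850). Leaving out a litter gave 3.13 to 7.31-fold for Fgf5 and 2.18 to 5.01-fold for Fgf17. For Fgf18, without litter 1 there were 2 reads in Gli3R and 3 in control (pooled 0.139 and 0.164 CPM, interval of the ratio 0.135 to 14.1), too few for a fold, and without litter 2 there were 0 in Gli3R and 4 in control. The signalling and neighbour counts under all settings, and the fit with no filter and the block, were added after seeing the data. Why these counts moved was not tested. With 3 libraries of 1000 cells per group, depth limits Fgf4, Fgf5, Fgf17 and Fgf18 most.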
